A study of Mus musculus with 19 samples.

Results

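The genes of de novo lipogenesis, the pathway by which hepatocytes turn carbon from sugar into fatty acids, were compared between young and old mice. Their 10 members were chosen by symbol from the 24537 genes of the count table: Scd1, Fasn, Acaca, Acly, Elovl5, Elovl6, Srebf1, Me1, Thrsp and Mlxipl. Each symbol matched 1 row, and all 10 passed the filter on low counts, as did 12269 genes in all. The 19 mice were wild-type C57BL/6J males, each giving 1 poly(A) RNA library of its hepatocytes, with no treatment or transgene named in the labels. Hepatocytes had been obtained by perfusing the liver in 2 steps. The 10 young mice were 5 months old and the 9 old mice 24 months. Mice were culled on 2 days that lay 23 days apart. The first day had 5 mice of each age, 140 and 719 days old by their dates of birth. On the second day there were 5 young mice of 163 days and 4 old mice of 742 days. The labels give neither the feeding state nor the hour at which mice were culled. Mice are named below by their library numbers.

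In this pathway citrate leaves the mitochondrion and is cut to acetyl-CoA by ATP citrate lyase (Acly). Acetyl-CoA carboxylase 1 (Acaca) turns it into malonyl-CoA, and fatty acid synthase (Fasn) builds palmitate from both, using NADPH that malic enzyme 1 (Me1) helps to supply. Elovl6 lengthens the saturated product, stearoyl-CoA desaturase 1 (Scd1) makes it monounsaturated, and Elovl5 lengthens polyunsaturated fatty acids. Transcription is driven by SREBP-1c, from Srebf1, which answers to insulin and to liver X receptors, and by ChREBP, from Mlxipl, which answers to sugar. Thrsp, known as Spot 14, is a thyroid hormone-responsive protein of lipogenic tissues. In liver these genes are known to be induced by refeeding on carbohydrate and to be low in fasting.

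The sequence just upstream of the start was printed for the 2 transcription factors, for the gene whose level differed most with age (Thrsp), for the synthase (Fasn) and for the elongase with the largest positive difference (Elovl5), so that their proximal promoters can be set side by side. The sequences are RefSeq's on GRCm38.p6, cover the 250 bases before a transcript start and run 5′ to 3′ on the gene's strand. Capitals mark matches on either strand to any of 4 motifs: CCAAT (bound by NF-Y), the E-box CACGTG, the sterol-element-like TCACNCCAC and the GC box GGGCGG. Overlapping matches are merged. Srebf1 is shown at the most downstream of its 3 RefSeq starts, from which the liver form SREBP-1c is transcribed. Mlxipl is shown at both of its starts. The count table has 1 row for each of these genes, so forms from different starts cannot be told apart below.
Thrsp (chr7:97417551-97417800, minus strand): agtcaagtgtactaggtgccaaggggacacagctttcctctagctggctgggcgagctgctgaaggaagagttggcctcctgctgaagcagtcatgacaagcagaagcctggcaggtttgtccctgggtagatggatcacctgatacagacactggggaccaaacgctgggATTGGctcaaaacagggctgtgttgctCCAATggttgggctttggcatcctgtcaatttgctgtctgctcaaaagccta
Fasn (chr11:120824548-120824797, minus strand): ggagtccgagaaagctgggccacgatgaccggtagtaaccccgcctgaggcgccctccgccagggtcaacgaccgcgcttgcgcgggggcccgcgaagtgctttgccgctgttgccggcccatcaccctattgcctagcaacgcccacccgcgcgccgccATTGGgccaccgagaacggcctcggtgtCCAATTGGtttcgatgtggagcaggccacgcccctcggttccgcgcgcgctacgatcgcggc
Elovl5 (chr9:77917115-77917364, plus strand): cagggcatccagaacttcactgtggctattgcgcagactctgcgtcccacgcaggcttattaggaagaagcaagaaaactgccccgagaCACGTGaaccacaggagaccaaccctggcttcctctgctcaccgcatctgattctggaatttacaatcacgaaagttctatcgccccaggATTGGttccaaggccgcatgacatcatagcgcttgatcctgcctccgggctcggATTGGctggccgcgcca
Srebf1 (chr11:60210472-60210721, minus strand): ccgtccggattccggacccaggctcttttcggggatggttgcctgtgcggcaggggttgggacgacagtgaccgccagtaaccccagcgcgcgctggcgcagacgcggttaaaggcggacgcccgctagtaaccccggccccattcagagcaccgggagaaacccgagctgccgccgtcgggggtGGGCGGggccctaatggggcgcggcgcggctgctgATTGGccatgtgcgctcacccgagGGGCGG
Mlxipl, downstream start (chr5:135106641-135106890, plus strand): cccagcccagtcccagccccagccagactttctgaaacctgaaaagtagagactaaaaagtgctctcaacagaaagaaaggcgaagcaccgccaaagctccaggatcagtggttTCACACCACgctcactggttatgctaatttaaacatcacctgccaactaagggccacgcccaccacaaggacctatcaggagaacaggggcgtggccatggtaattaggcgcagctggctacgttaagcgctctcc
Mlxipl, upstream start (chr5:135089640-135089889, plus strand): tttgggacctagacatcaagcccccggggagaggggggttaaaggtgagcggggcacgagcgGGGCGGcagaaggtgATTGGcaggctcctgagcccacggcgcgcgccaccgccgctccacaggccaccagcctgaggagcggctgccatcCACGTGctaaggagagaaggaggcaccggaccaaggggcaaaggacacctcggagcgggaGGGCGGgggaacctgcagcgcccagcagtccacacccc

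The promoter table matched 9 of the 10 genes, in 13 windows, and had no entry for Scd1. CCAAT lay in 7 of the 13 windows (Elovl5, Fasn, Me1, Mlxipl, Srebf1 and Thrsp) against 33.8% of the 32851 windows of all genes. The E-box lay in 2 of 13, in Elovl5 and at the upstream start of Mlxipl, against 6.02%. TCACNCCAC lay in 1 of 13, at the downstream start of Mlxipl, against 1.05%, and GGGCGG in 5 of 13 (Acly, Me1, Mlxipl and Srebf1) against 32.7%. These are matches of letters within a short window; sites farther upstream were not searched.

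The libraries held 17381307 to 20287481 counts over genes. All 12 hepatocyte marker genes passed the filter and their summed level was 97901 to 157732 CPM (counts scaled to a fixed library total, after TMM) in young and 120264 to 200806 in old mice. By gene, 2 of the 12 were higher and 5 lower in old mice, with a median log2 fold change of -0.28, where 16.3% of all tested genes were called higher and 14.5% lower. Markers of other liver cells were also present and mostly higher with age: all 14 macrophage genes (summed CPM 102 to 497 in young, 69.8 to 3378 in old), 10 of 14 endothelial genes (200.1 to 362 and 214 to 684) and all 12 stellate genes (47.5 to 129 and 134 to 467) were called higher in old mice, against the same 16.3%. On the first day alone 0, 0 and 5 genes of these lists were called (edgeR), where 3.67% of all tested genes were called in either direction. At an unadjusted p under 0.05 stood 2, 8 and 10 of them, against 3241 of the 12188 genes tested both there and over both days. On the second day alone 14, 8 and 11 were called, where 19.3% of all tested genes were. No gene of those 3 lists was at 0 in every library of an age. Of 6 genes listed for adipocytes, the other main lipogenic cell type, Adipoq had at most 2 counts in any library, Lep 1, Plin1 5 and Retn 5. The remaining pair were measurable, Cfd at up to 12.1 CPM and Adrb3 at up to 8.21 CPM, and the 6 summed to 1.53 to 13.8 CPM in young and 4.26 to 13.0 CPM in old mice. Neither Cfd (0.47, adjusted p = 0.617) nor Adrb3 (0.68, adjusted p = 0.0822) was called by age, and the part of such cells in the results was not tested. An other-cell score, the mean log2 CPM of the 40 tested macrophage, endothelial and stellate genes, ran from 2.28 to 3.86 in young and from 2.54 to 5.73 in old mice, the highest in old mouse 1187. Young mice 1184, 1186 and 1188 stood apart in acute-phase transcripts, whose summed level was 71155 to 116395 CPM in them and 21096 to 26958 CPM in the other 7 young mice. In bulk RNA, fewer hepatocytes and less of a transcript per hepatocyte cannot be told apart.

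Expressed per kilobase of transcript, Scd1 stood far above the rest at 3068 CPM per kb, the mean of 19 mice. It took 0.777% to 2.41% of all counts in a library. Elovl5 followed at 259.7, Thrsp at 205, Acly at 87.3, Me1 at 69.3, Fasn at 62.5, Srebf1 at 46.2, Mlxipl at 34.0, Elovl6 at 19.9 and Acaca at 13.5 CPM per kb. Scd1 exceeded Elovl5 in all 19 libraries by 7.12 to 15.9 times, and these were the only neighbours in the order whose ranges over mice did not overlap. Elovl6 was above Acaca in 19 of 19 libraries, with a median ratio of 1.42, although their ranges overlapped. Me1 was above Fasn in 9 of 19 libraries, so the order of that pair was not settled.

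**Figure D1:**
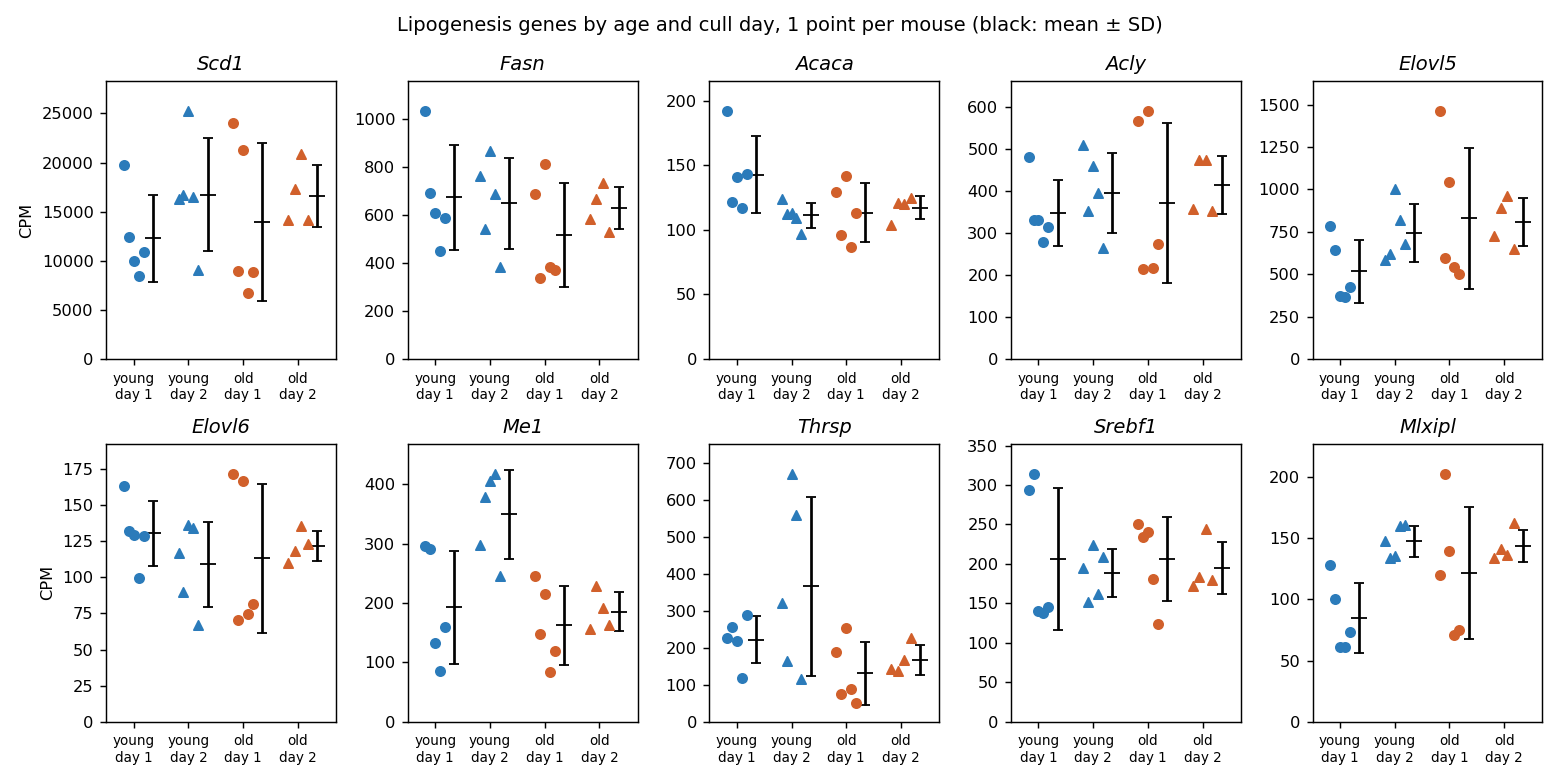
Level of each of the 10 lipogenesis genes in every mouse, in CPM (TMM-scaled; linear axes from 0, each with its own range), by age and cull day. Circles are mice of the first cull day and triangles of the second, blue young and orange old; black marks are mean ± SD. Me1 on the second day shows 4 old mice (156 to 229 CPM) below 5 young mice (246 to 418 CPM), while the ages overlap for the other genes.

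Thrsp was the only member called different between old and young hepatocytes. Equality of the other 9 was not tested, and their intervals, given below, differ in width. Of the 10 genes, 0 were called higher and 1 lower in old mice (edgeR's quasi-likelihood test with cull day as a covariate, Benjamini-Hochberg adjusted p under 0.05), whereas 30.9% of all tested genes were called, 16.3% higher and 14.5% lower. Without adjustment, 2 of 10 had p under 0.05 (Thrsp and Me1), against 42.3% of tested genes. The median log2 fold change of the members was -0.01, and that of all tested genes was -0.003. For none of the 10 did the CPM of the 2 ages separate completely over both days, which 1.73% of tested genes did.

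Thrsp, the lipogenic regulator, fell with age. On the first cull day its level was 227, 255, 218, 119 and 288 CPM in young mice 1180, 1182, 1184, 1186 and 1188. Old mice 1181, 1183, 1185, 1187 and 1189 of that day had 187, 76.3, 253, 87.6 and 50.9 CPM. On the second day young mice 1235, 1237, 1239, 1243 and 1244 had 323, 164, 672, 559 and 115 CPM, and old mice 1236, 1238, 1240 and 1242 had 143, 138, 166 and 226 CPM. Thus 8 of 9 old mice lay below the young median of 241 CPM, 3 lay below every young mouse, and 5 of 10 young mice lay above every old one. Young mice averaged 294 ± 184 CPM (SD, n = 10), old mice 147.7 ± 68.4 CPM (SD, n = 9). The log2 fold change was -0.93 (SE 0.329, 95% confidence interval -1.61 to -0.24, edgeR adjusted p = 0.0386), a ratio of 0.526 (0.327 to 0.846).

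The Thrsp call was fragile while its sign was not. The estimate stayed negative in all 30 alternative fits, from -1.13 to -0.63, but 17 of them did not pass the threshold. Among these were each cull day alone (-0.75, adjusted p = 0.268, and -1.11, adjusted p = 0.0954), limma-voom with sample weights (-0.63, adjusted p = 0.136) and the fit with the other-cell score (-0.67, adjusted p = 0.343). Leaving out 1 mouse ended the call for 11 of the 19 mice (young 1180, 1182, 1188, 1239 and 1243, old 1183, 1187, 1189, 1236, 1238 and 1240), with adjusted p between 0.0531 and 0.0717. Without young mice 1184, 1186 and 1188, which had the high acute-phase transcripts, the log2 fold change was -1.03 (adjusted p = 0.0534).

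Me1, which makes NADPH from malate, had the next largest difference, -0.56 (SE 0.238, interval -1.06 to -0.06, edgeR adjusted p = 0.0789), young mice averaging 271 ± 115 CPM (SD, n = 10) and old mice 172.5 ± 52.7 CPM (SD, n = 9). All 9 old mice lay below the young median of 294 CPM. On the second cull day the young mice, in the same order as above, had 298, 379, 405, 418 and 246 CPM and the old mice 156, 229, 192 and 164 CPM, so the ages did not overlap, as was true of 7.86% of tested genes in that direction. In a fit of that day alone Me1 was called lower in old mice, at -0.91 (SE 0.165, edgeR adjusted p = 0.00301), the 1 member called on that day, where 19.3% of tested genes were called and 7.15% lower. On the first day the young mice had 296, 291.5, 132.5, 86.2 and 159 CPM and the old mice 245, 147.6, 215, 84.3 and 119.7 CPM, each in numerical order. The ages overlapped, and the difference was -0.24 (adjusted p = 0.71, background 3.67% called).

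The 3 young mice with high acute-phase transcripts were also the 3 lowest young mice for Me1 on the first day. Without them the Me1 difference over both days was -0.89 (adjusted p = 0.0046). As these young mice were low for Me1, leaving them out had to widen the difference. That fit kept old mouse 1189, whose summed acute-phase level (82799 CPM) was above that of young mouse 1188 (71155 CPM). Me1 was also called without old mouse 1181 (-0.68, adjusted p = 0.033), without young mouse 1186 (-0.68, adjusted p = 0.0233) and by DESeq2 (-0.57, adjusted p = 0.0421). On the second day, where Me1 separated the ages, the summed acute-phase level (42879 to 61562 CPM in old, 21096 to 26958 CPM in young) and the other-cell score (3.90 to 4.54 in old, 2.48 to 3.53 in young) separated them as well. In the fit with the other-cell score the Me1 difference was 0.01 (adjusted p = 0.977). The part of the acute-phase transcripts in the Me1 result was not tested beyond leaving out those mice.

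For Acly, which feeds the pathway with acetyl-CoA, young mice had a minimum of 264 CPM, a median of 342 and a maximum of 511, and old mice 214, 357 and 592 CPM. The old mice lay at both ends of the range, with 2 above every young mouse and 2 below every young mouse. The log2 fold change was 0.08 (SE 0.192, interval -0.32 to 0.49, edgeR adjusted p = 0.769), and its estimate was positive in 27 of 30 alternatives.

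The core of the pathway did not pass the test in either enzyme. Fasn had a lowest level of 384 CPM, a median of 649 and a highest level of 1036 in young mice, against 337, 586 and 814.5 CPM in old mice, a difference of -0.22 (SE 0.193, interval -0.63 to 0.18, adjusted p = 0.403). Acaca had 96.9, 119.1 and 192 CPM in young and 86.6, 120.1 and 142 CPM in old mice, a difference of -0.14 (SE 0.109, interval -0.37 to 0.09, adjusted p = 0.349). The ages overlapped widely for both, and the interval for Acaca, the steadiest member, leaves out changes larger than a ratio of 0.775 downward or 1.06 upward. Young mouse 1180 had the highest level of both; without it the differences were -0.11 for Fasn (adjusted p = 0.68) and -0.06 for Acaca (adjusted p = 0.645). Without old mouse 1187 that of Acaca was -0.09. On the first and second day alone Acaca differed by -0.33 (adjusted p = 0.245) and 0.08 (adjusted p = 0.575). Fasn differed by -0.38 (adjusted p = 0.435) and -0.04 (adjusted p = 0.915). Each of the 2 estimates was positive in 1 of 30 alternatives.

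Among the enzymes that shape the product, none was called. Scd1 had 8433, 14355 and 25267 CPM as the lowest, median and highest young values and 6700, 14141 and 24022 CPM as the old ones, with a log2 fold change of 0.09 (SE 0.241, interval -0.41 to 0.60, adjusted p = 0.797). Its interval holds ratios from 0.752 to 1.51. Single choices moved the estimate and its sign: it was 0.51 in the fit with the other-cell score (adjusted p = 0.302), 0.21 without young mouse 1180 (adjusted p = 0.558) and -0.06 without old mouse 1181 (adjusted p = 0.872). Elovl6, which elongates palmitate, differed by -0.03 (SE 0.180, interval -0.41 to 0.34, adjusted p = 0.905), and its estimate was positive in 9 of 30 alternatives.

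Elovl5 had the largest positive estimate, 0.42 (SE 0.213, interval -0.03 to 0.86, adjusted p = 0.140). Its levels ran from 365 through a median of 631 to 1001 CPM in young mice and from 501.5 through 727 to 1464 CPM in old mice, with old mice 1181 (1464 CPM) and 1185 (1044 CPM) above every young mouse. The estimate was positive in all 30 alternatives and was called in 1 of them, limma-voom with sample weights (0.51, adjusted p = 0.0455). It was 0.25 without old mouse 1181 (adjusted p = 0.304), 0.16 without young mice 1184, 1186 and 1188 (adjusted p = 0.613) and 0.13 on the second day alone (adjusted p = 0.622), and was highest, 0.78, in the fit with the other-cell score (adjusted p = 0.0672).

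The 2 transcription factors also stayed short of the threshold. Srebf1 had 138, 178 and 314.5 CPM as the lowest, median and highest young values and 124, 183 and 251 CPM as the old ones, a difference of 0.02 (SE 0.172, interval -0.34 to 0.38, adjusted p = 0.934), and its estimate was positive in 18 of 30 alternatives. Its gene overlaps the end of Rai1 on the other strand, which had a mean of 8.33 CPM, and whether counting used strand is not given in the sources used here. Mlxipl had 61.1, 131 and 161 CPM in young and 71.1, 136.7 and 203 CPM in old mice, a difference of 0.26 (SE 0.186, interval -0.13 to 0.65, adjusted p = 0.305). In the fit with the other-cell score Mlxipl was called higher in old mice, at 0.72 (adjusted p = 0.00731). The estimate was 0.11 without old mouse 1183 (adjusted p = 0.617), 0.01 without young mice 1184, 1186 and 1188 (adjusted p = 0.971) and -0.04 on the second day alone (adjusted p = 0.825).

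**Figure D2:**
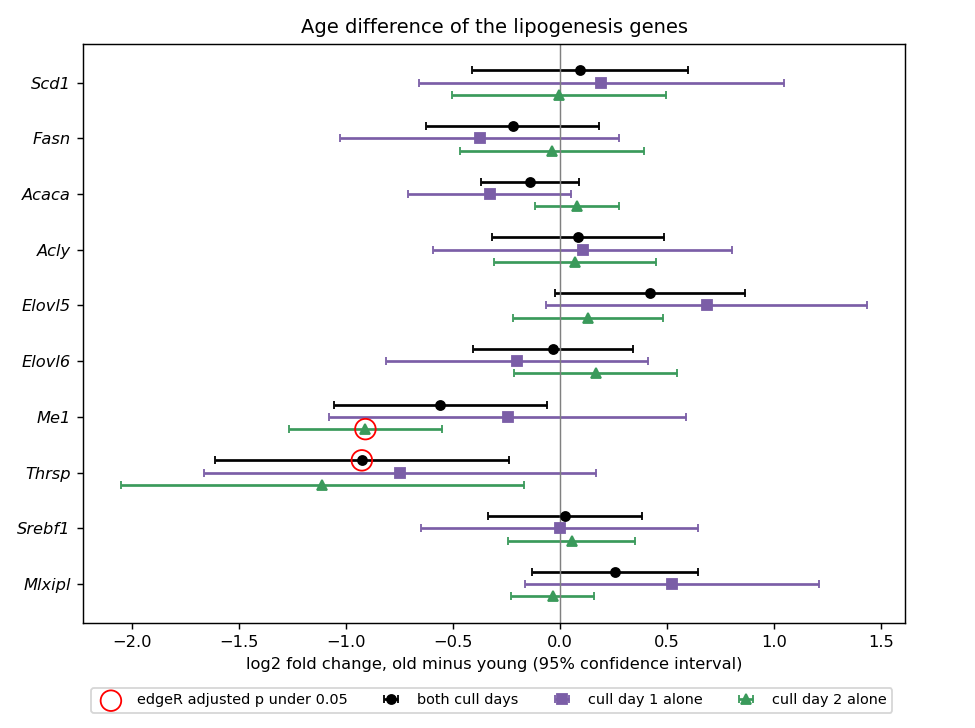
Log2 fold change of old against young mice for each of the 10 genes, with 95% confidence intervals from edgeR, over both cull days (black), the first day alone (purple) and the second day alone (green). Red rings mark the 2 estimates with an adjusted p under 0.05: Thrsp over both days (-0.93) and Me1 on the second day (-0.91).

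Whether the age difference depended on the cull day was tested by an interaction. It was called for 0 of the 10 genes by edgeR and 0 by DESeq2, with 0 of 10 at an unadjusted p under 0.05, and for 0% of all tested genes by edgeR (6.51% unadjusted). The smallest p was that of Acaca, at 0.41 (SE 0.203, edgeR unadjusted p = 0.0572, adjusted p = 0.78). Its unadjusted edgeR p was under 0.05 in some alternatives, such as library totals alone (0.0389) and the other-cell score (0.0407). For Me1, called on 1 day and not the other, the interaction was -0.67 (SE 0.455, adjusted p = 0.866), so a difference between days was not shown. The cull day itself, the second minus the first after allowing for age group, was called for 0 of 10 members against 12.3% of tested genes. Mice of the second day were also 23 days older in both age groups, which cannot be told apart from the cull day. The largest estimates were 0.56 for Thrsp (SE 0.324, adjusted p = 0.254), 0.55 for Me1 (SE 0.236, adjusted p = 0.13) and 0.54 for Mlxipl (SE 0.186, adjusted p = 0.063). DESeq2 called Mlxipl (0.54, adjusted p = 0.0314), and so did edgeR without old mouse 1183 (0.67, adjusted p = 0.0083). Without young mice 1184, 1186 and 1188 the Mlxipl difference between days was 0.29 (adjusted p = 0.387).

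Libraries of the same age and day also varied; with 1 library per mouse, variation between mice, cell preparations and libraries cannot be told apart. Within an age and cull day the SD of log2 CPM was 0.81 for Thrsp, 0.57 for Scd1, 0.55 for Me1, 0.48 for Elovl5, 0.46 for Acly, 0.46 for Fasn, 0.42 for Elovl6, 0.42 for Srebf1, 0.42 for Mlxipl and 0.23 for Acaca. The median of the members was 0.46, against 0.24 over all tested genes and 0.21 over tested genes at least as high in CPM as the lowest member. Thrsp was more variable than 94.9% of tested genes and Acaca than 47.0%. Thrsp spanned 13.2-fold from lowest to highest mouse, Scd1 3.77-fold and Acaca 2.22-fold.

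Mice tended to be high or low for most members at once. When each gene was put on a z scale over the 19 mice and averaged, old mouse 1187 had the lowest mean (-1.34), followed by old mouse 1189 (-1.19), young mouse 1186 (-1.08) and old mouse 1183 (-0.77). Mice 1187, 1189 and 1186 lay below the median for all 10 genes. The highest means were those of young mouse 1180 (1.09), young mouse 1239 (0.94), old mouse 1185 (0.92) and old mouse 1181 (0.89). Both ends of the order thus held both ages. Of the low mice, 1187 had the highest other-cell score of all (5.73) and 1183 the lowest of the old mice (2.54), while 1186 and 1189 had the highest acute-phase sums of their ages (116395 and 82799 CPM). The part of these in the order of mice was not tested.

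**Figure D3:**
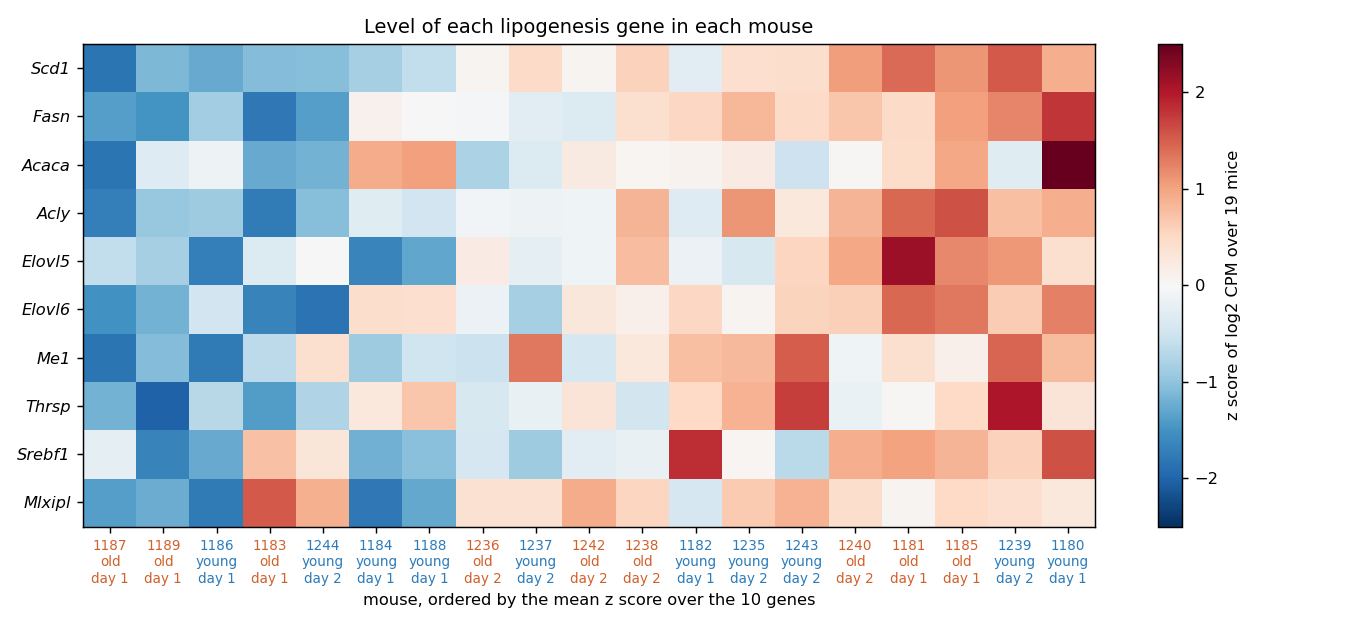
Level of each lipogenesis gene in each mouse as a z score of log2 CPM over the 19 mice (blue low, red high; rows are genes, columns are mice ordered by the mean over the 10 genes, labelled by library number, age and cull day). Old mouse 1187 (mean -1.34) and young mouse 1180 (mean 1.09) are the extremes, and old and young mice are mixed along the order.

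The common movement was measured by correlating log2 CPM between genes after removing the mean of each age and cull day, with 100000 permutations of mice within age and day. All 45 pairs of members had a positive Pearson's r, from 0.25 to 0.93 with a median of 0.71, and 31 of 45 had an adjusted permutation p under 0.05 by both Pearson's r and Spearman's rho (Benjamini-Hochberg over 45 pairs). Among the 558096 pairs of the 1057 tested genes at least as high as the lowest member, 61.1% were above 0, the median r was 0.13 and 6.28% reached the members' median. At r of 0.5 or more stood 33 of the 45 member pairs, against 20.5% of those pairs.

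The tightest block was Fasn, Acly, Elovl6 and Scd1, that is the citrate lyase, the synthase, the palmitate elongase and the desaturase. Fasn and Acly had r = 0.93 and rho = 0.97 over 19 mice (adjusted permutation p = 0.000225 for each, raw p = 1e-05, the smallest that the permutations can give), and r = 0.91 without the 2 mice farthest from the median. Scd1 and Fasn had r = 0.93 and rho = 0.90 (adjusted permutation p = 0.000338 and 0.00075), with r = 0.96 without the 2 farthest mice. Thrsp was closest to Elovl6 (r = 0.87, rho = 0.88, adjusted permutation p = 0.00156 and 0.00237), with r = 0.84 without the 2 farthest mice. The 2 mice left out were the farthest in a single gene of each pair, here Fasn, Scd1 and Elovl6. Mice extreme for Thrsp could therefore remain.

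The transcription factors had lower values. Srebf1 passed in 5 of its 9 pairs, with a median r of 0.55, and Mlxipl in 1 of 9, with a median r of 0.35. That 1 pair was Mlxipl with Srebf1 (r = 0.71, rho = 0.72, adjusted permutation p = 0.0211 and 0.0139), with r = 0.64 without the 2 mice farthest for Srebf1. Whether these medians differ from those of the enzymes was not tested.

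Within young mice the median r of the 45 pairs was 0.66, a value reached by 16.0% of the pairs of those 1057 genes in the same mice, and within old mice 0.78, reached by 7.23%. Within the first cull day it was 0.78, reached by 7.52%, and within the second 0.51, reached by 21.1%. All 45 pairs were above 0 in the first 3 of these subsets and 35 of 45 on the second day, against 57.3% to 61.9% of the pairs of the 1057 genes. On the second day Mlxipl had r = -0.60 with Scd1, -0.46 with Fasn and -0.10 with Srebf1, against 0.54, 0.45 and 0.80 on the first day. Its other pairs on the second day ran from -0.41 (Acly) to 0.01 (Thrsp). Mlxipl itself ranged from 133.7 to 162.5 CPM on the second day and from 61.1 to 203 CPM on the first. The first day included the mice with high acute-phase transcripts. Neither the difference between days nor the part of those mice in it was tested. Fasn and Acly kept r = 0.94 on each day.

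**Figure D4:**
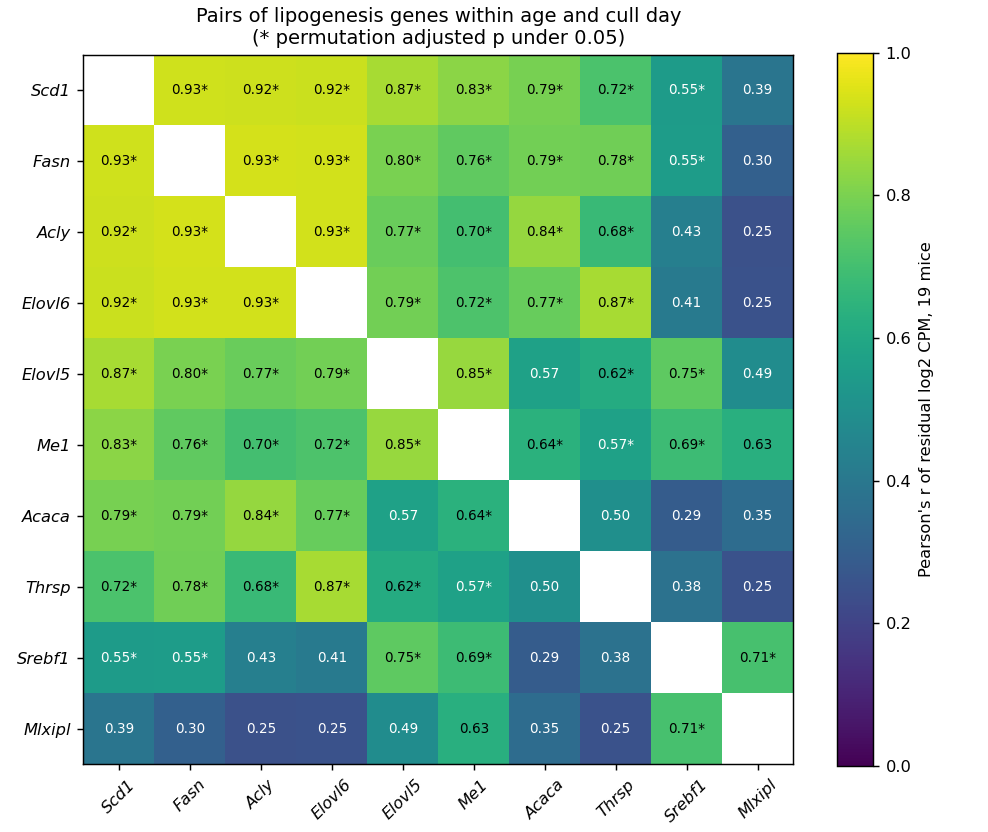
Pearson's r between every pair of the 10 genes over 19 mice, from log2 CPM after removing the mean of each age and cull day (colour and number; an asterisk marks an adjusted permutation p under 0.05). The block of Scd1, Fasn, Acly and Elovl6 holds r of 0.92 to 0.93, and the row of Mlxipl has 1 marked pair, with Srebf1 (0.71).

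Of 8642 named genes with a mean of at least 5 CPM, those whose log2 CPM was most like the members' mean z score over the 19 mice were Acss2os (r = 0.91), Acss2 (0.90), Dpp4 (0.89), Rnf103 (0.88), Pklr (0.85), Amt (0.84), Rnf13 (0.84) and Adipor2 (0.83). Acss2 is the cytosolic acetyl-CoA synthetase and Pklr the liver pyruvate kinase. Acss2os is named as the opposite strand of Acss2, so reads of the pair may not be told apart. The most opposite were Ung (r = -0.85), Gas2l1 (-0.84), Akt1 (-0.81) and Nme7 (-0.77). After removing the mean of each age and cull day the first 8 were Acss2 (0.95), Acss2os (0.95), Sc5d (0.93), Acsl5 (0.92), Adipor2 (0.91), Dpp4 (0.91), Rnf103 (0.91) and Tmie (0.90), and the lowest 4 Gas2l1 (-0.92), Ung (-0.86), Rfx1 (-0.85) and Akt1 (-0.85). None of these genes was called by age, the nearest being Tmie at 0.35 (adjusted p = 0.053).

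Genes around the pathway were read from 8 lists. Of their 99 tested genes 31 were called by age (31.3%, against 30.9% of all tested genes), 8 of them higher (8.08% against 16.3%) and 23 lower (23.2% against 14.5%). Of those 31 genes, 11 were still called in the same direction in the fit with the other-cell score (5 higher, 6 lower), 2 on the first cull day alone (2 higher, 0 lower) and 17 on the second alone (4 higher, 13 lower), and the sign was kept by 30, 31 and 31 of them. Among 13 genes that supply acetyl-CoA and NADPH, 1 was higher and 3 lower, with a median log2 fold change of -0.11. G6pdx, the first enzyme of the pentose phosphate pathway, rose by 1.13 (SE 0.304, edgeR adjusted p = 0.00999), from a young mean of 5.25 ± 1.35 CPM (SD, n = 10) to an old mean of 11.4 ± 8.01 CPM (SD, n = 9), and old mice ran from 2.96 to 31.2 CPM. In the fit with the other-cell score it was 0.16 (adjusted p = 0.75), and without old mouse 1187 it was 0.75 (adjusted p = 0.0128). Idh1, cytosolic isocitrate dehydrogenase, fell by 0.28 (adjusted p = 0.0114). The citrate carrier Slc25a1 differed by -0.02 (adjusted p = 0.89), Acss2 by 0.32 (adjusted p = 0.337) and Pgd by 0.19 (adjusted p = 0.213).

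Of 11 genes that act on malonyl-CoA or on acetyl-CoA carboxylase, 1 was higher and 2 lower (median -0.05). The AMP-activated kinase subunit Prkab1 was higher by 0.35 (adjusted p = 0.00563) and the catalytic subunit Prkaa2 lower, at -0.46 (adjusted p = 0.0134). Acacb, the mitochondrial-membrane carboxylase, differed by 0.25 (adjusted p = 0.431) and Mid1ip1, a partner of Thrsp, by -0.01 (adjusted p = 0.977).

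Of 11 tested elongation and desaturation genes, 1 was higher and 1 lower (median -0.08). Scd2, a second stearoyl-CoA desaturase, rose by 1.87 (SE 0.262, edgeR adjusted p = 0.000109), from a young mean of 2.83 ± 0.998 CPM (SD, n = 10) to an old mean of 10.3 ± 4.59 CPM (SD, n = 9), and 8 of 9 old mice lay above every young mouse. It kept its call in all 30 alternatives. Scd2 and Scd1 are close relatives and Scd1 is far more abundant, so reads assigned to the wrong copy could matter for Scd2, and its level is uncertain. Elovl3, an elongase of very long chains, fell by 0.94 (SE 0.301, adjusted p = 0.0243), from a young mean of 423 ± 133 CPM (SD, n = 10) to an old mean of 215 ± 110.0 CPM (SD, n = 9), and by 0.44 (adjusted p = 0.387) with the other-cell score. Elovl2 (-0.12, adjusted p = 0.623), Fads1 (0.17, adjusted p = 0.229) and Fads2 (-0.26, adjusted p = 0.218) were not called.

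In glycerolipid assembly 0 of 16 tested genes were higher and 4 lower (median -0.21). Lpin1, a phosphatidate phosphatase, fell by 1.21 (SE 0.314, edgeR adjusted p = 0.00815), from a young mean of 114.3 ± 55.6 CPM (SD, n = 10) to an old mean of 50.5 ± 26.3 CPM (SD, n = 9), and its relative Lpin2 fell by 0.53 (adjusted p = 0.00933). The acyltransferases Gpam (-0.21, adjusted p = 0.548) and Dgat2 (-0.26, adjusted p = 0.058) were not called.

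In the list of sugar handling and ChREBP, 2 of 13 genes were higher and 5 lower (median -0.19). Pnpla3, a lipid droplet hydrolase gene that ChREBP and SREBP-1c are known to drive, rose by 2.38 (SE 0.429, edgeR adjusted p = 0.000754), from a young mean of 2.07 ± 1.55 CPM (SD, n = 10) to an old mean of 10.2 ± 5.85 CPM (SD, n = 9), and 7 of 9 old mice lay above every young mouse while 1 lay below them all. Tm6sf2 rose by 0.52 (adjusted p = 0.000253). Pklr differed by -0.19 (adjusted p = 0.264).

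Of 16 SREBP and liver X receptor genes, 2 were higher and 2 lower (median -0.0003). Nr1h3, which encodes liver X receptor alpha, fell by 0.22 (adjusted p = 0.0187). The E-box factor gene Usf1, whose p was not among the 2 smallest of the list, was higher by 0.27 (adjusted p = 0.0278). Srebf2 (-0.02, adjusted p = 0.916), Insig1 (-0.17, adjusted p = 0.247) and Insig2 (-0.11, adjusted p = 0.522) were not called. Of 12 insulin and mTOR genes, 0 were higher and 3 lower (median -0.12), among them Rptor (-0.40, adjusted p = 0.00273) and Rps6kb1 (-0.28, adjusted p = 0.00718).

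Of 7 thyroid hormone genes, listed because Thrsp answers to that hormone, 1 was higher and 3 lower (median -0.28). Dio1, the deiodinase that makes active hormone, fell by 1.40 (SE 0.253, edgeR adjusted p = 0.00075), from a young mean of 87.1 ± 30.3 CPM (SD, n = 10) to an old mean of 33.3 ± 17.1 CPM (SD, n = 9). The transporter Slc16a10 fell by 0.61 (adjusted p = 0.0132).

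Not all of these calls held in a part of the data or beside the other-cell score. On the first day alone Scd2 and Tm6sf2 were called and the other genes named above as called were not. On the second day alone the calls of Idh1 (adjusted p = 0.0582), Prkab1 (adjusted p = 0.103), Nr1h3 (adjusted p = 0.0912), Usf1 (adjusted p = 0.352) and Rps6kb1 (adjusted p = 0.135) ended too, so these 5 were called only with both days together. In the fit with the other-cell score the calls of Idh1 (-0.14, adjusted p = 0.318), Prkaa2 (-0.26, adjusted p = 0.28), Lpin2 (-0.40, adjusted p = 0.156), Usf1 (0.33, adjusted p = 0.0566) and Rps6kb1 (-0.17, adjusted p = 0.198) ended, besides those of G6pdx and Elovl3 given above. Prkab1, Scd2, Lpin1, Pnpla3, Tm6sf2, Nr1h3, Rptor, Dio1 and Slc16a10 were still called there.

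**Figure D5:**
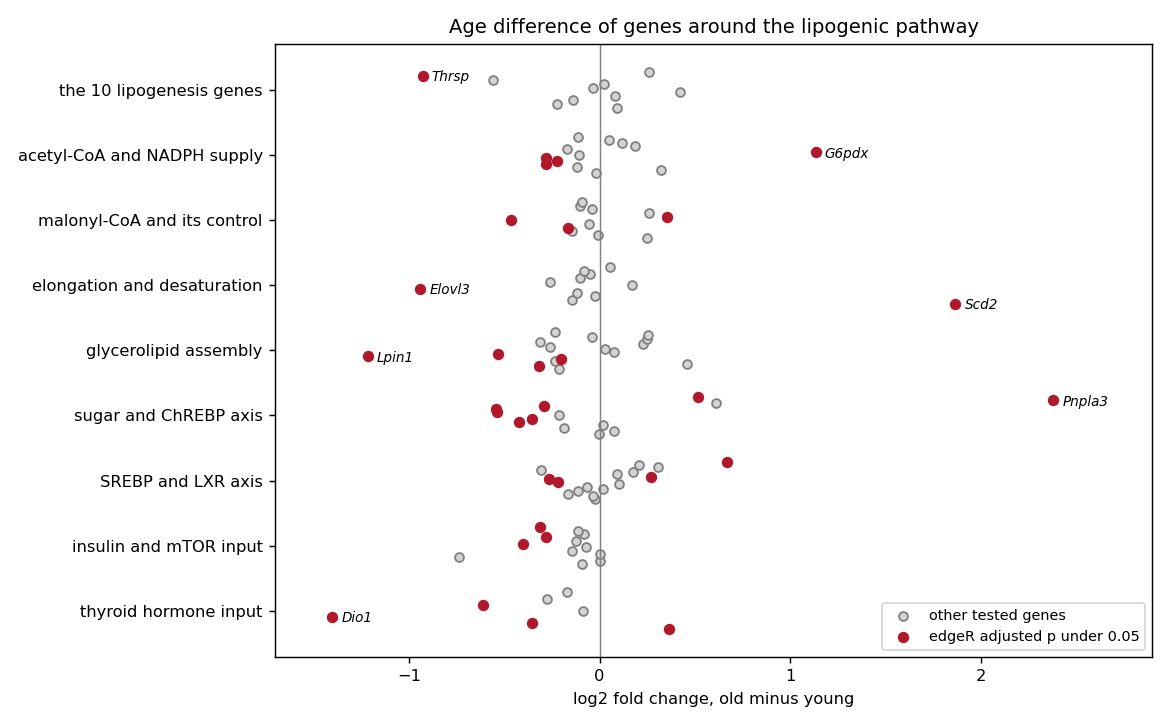
Log2 fold change of old against young mice for the 10 lipogenesis genes and for each tested gene of 8 lists around them (1 point per gene, both cull days; red points have an edgeR adjusted p under 0.05, and those changed by more than 0.9 are named). Called genes lie on both sides of 0, with Pnpla3 (2.38) and Scd2 (1.87) at the right end and Dio1 (-1.40) and Lpin1 (-1.21) at the left.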

How the data were processed

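The authors deposited 1 table of estimated counts per gene, which per the file headers came from analyzeRepeats.pl of HOMER, run on mm10 with reads counted over exons, transcripts condensed to genes and no normalization. STAR, HOMER and GRCm38 (mm10) are named in the submitters' processing notes; versions, strand setting and the handling of reads with several matches are not given in the sources used here. Values came in steps of 0.5, 29.2% of them not whole, so they were rounded to whole counts (ties to even) and the tests planned for counts were kept.

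Genes passing edgeR's filterByExpr by age (minimum count 10; 12269 genes) were scaled by TMM and tested with edgeR 4.0.16 (R 4.3.3) by the quasi-likelihood test with cull day as covariate, with Benjamini-Hochberg adjustment over all tested genes and a threshold of 0.05. Standard errors are the absolute log2 fold change over the square root of F. The code was tested on simulated data. CPM are TMM-scaled; log2 CPM for correlations used a prior count of 2, in Python 3.11.15 with numpy 2.4.6. Alternatives were DESeq2 1.42.0, limma 3.58.1 (voom), other scalings and filters, no cull day term, each day alone, an other-cell covariate, and leaving out mice. Replicates are separate mice, and the 19 libraries gave 17381307 to 20287481 counts over genes. What part of the spread between libraries is counting error was not tested.

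The members and the gene lists were chosen with earlier results of these data known. Named genes are the 10 members, a set of 20 related genes, the 2 genes of each list with the smallest p past the threshold, and the 8 most and 4 least similar genes (mean of at least 5 CPM, unnamed and predicted genes left out). Some genes that this rule names are not reported here. Other genes are named as chosen after their values were seen.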

Additional observations from a re-analysis of the deposited data

Results flagged for a closer look

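The Acaca level of young mouse 1180, 192 CPM, lay far above the other 9 young mice, by the ratio of its gap from the next mouse to the range of the group. It was the 1 combination that stood out of 20 combinations of gene and age checked; chance flags about 1 in 20 groups. Without this mouse the Acaca age difference went from -0.14 to -0.06 on the log2 scale. The same mouse had the highest mean z score over the 10 lipogenesis genes (1.09).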

How the results depend on the processing

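No paired analysis was possible because the replicate numbers are library numbers that no young and old mouse share. The count of members called by age, 1 (0 higher, 1 lower), became 2 (2 lower) with DESeq2, stayed at 1 but with 1 higher and 0 lower with limma-voom (Elovl5) and with the other-cell covariate (Mlxipl), and was 0 (0 lower) with a stricter filter (minimum count 50) and on the first cull day alone. Leaving out 1 mouse gave 0 to 2 members, all lower. Over all genes, 3785 were called, against 450 on the first day alone, 2389 on the second, 1494 with the other-cell covariate and 3014 to 3949 without 1 mouse. The share of calls that were higher was 53.0%, and 64.2% with scaling to library totals alone. Related list genes called, 31 (8 higher, 23 lower), became 3 (3 higher, 0 lower) on the first day, had 5 higher on the second, and became 13 (7 lower) with the other-cell covariate and 25 to 34 without 1 mouse. Members called by cull day, 0, became 1 (1 higher) with DESeq2 and with the stricter filter, 2 (2 higher) with the other-cell covariate and 0 to 1 without 1 mouse. Members called for the interaction were 0 in every alternative in which it was fitted. No named gene changed sign while called. Days alone and fits without mice have fewer samples; the cause of the other shifts was not tested.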

Other observations

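Of 12 genes of the fasting response, 1 was higher and 1 lower in old mice (16.3% and 14.5% of all tested genes), named here after their values were seen. Pdk4, a kinase that holds back pyruvate oxidation, was higher by 1.17 on the log2 scale (SE 0.321, edgeR adjusted p = 0.0112), but not called on the first day alone (1.69, adjusted p = 0.0633) or on the second (0.61, adjusted p = 0.18). Pck1, a key enzyme of gluconeogenesis, fell by 0.50 (SE 0.161, adjusted p = 0.0243), and was likewise not called on the first day (-0.59, adjusted p = 0.17) or the second (-0.40, adjusted p = 0.143). Of the 12 genes, 3 were called on the second day alone, all lower, where 19.3% of all tested genes were called and 7.15% lower. The interaction was called for 0 of 12 by edgeR, with 6 at an unadjusted p under 0.05, against 6.51% of all tested genes. The summed level of the 12 genes was 4969 to 7834 CPM in young and 3790 to 6194 CPM in old mice. Of 16 tested clock genes, 1 was higher and 7 lower (16.3% and 14.5% of all tested genes), with a median log2 fold change of -0.40, against -0.003 over all tested genes. On the 2 cull days alone the medians were -0.35 and -0.41, with 0 and 7 called lower; 3.67% of all genes were called in either direction on the first day and 7.15% lower on the second, and the interaction was called for 0 of 16 (2 at an unadjusted p under 0.05, edgeR). Of 18 acute-phase genes, 0 were called over both days by edgeR (1 at an unadjusted p under 0.05). On the first day alone 1 of 18 had a positive estimate, with a median of -1.38 and 0 called. On the second day all 18 were positive, with a median of 1.29 and 16 called, where 19.3% of all tested genes were. The interaction was called for 0 of 18, with 15 at an unadjusted p under 0.05.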
